A study of Mus musculus with 27 samples.

Results

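The hyaluronan and versican genes described here are 7 mouse genes, taken by their symbols from the 54532 genes of the expression table: the hyaluronan synthases Has1 and Has2, the hyaluronan cross-linker Tnfaip6, the proteoglycan Vcan, the receptor Cd44 and the hyaluronidases Hyal1 and Hyal2. They were followed in the tibialis anterior muscle of C57BL/6 mice with volumetric muscle loss (VML), an injury in which 40% of the muscle of 8-week-old male mice was excised. Bulk RNA sequencing covered 27 muscle samples: 5 uninjured controls, and 5, 6, 6 and 5 muscles taken 3, 7, 14 and 21 days after injury. The mice carried no named allele, transgene or agent, and the groups shared strain and tissue. The sample labels do not tie samples to animals, and the descriptions of the study differ on whether 1 or both legs were injured, so the p-values below measure the spread between samples. Each sample is a whole muscle, so that fewer cells of a type and less RNA per cell cannot be told apart.

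Hyaluronan is a long, unsulphated sugar chain that synthases extrude through the plasma membrane from 2 nucleotide sugars. After injury it swells tissue into a loose provisional matrix. Versican, a large chondroitin sulphate proteoglycan, binds the chains through its globular head, and TSG-6, the protein of Tnfaip6, carries heavy chains of a serum protein onto them and so links them to each other. CD44 is a main hyaluronan receptor of many cells, leukocytes and fibroblasts among them. HYAL2 at the cell surface and HYAL1 in lysosomes cut the chains, and further enzymes degrade the fragments.

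All 7 genes were found in the table, at positions that equal those of GENCODE M21 on GRCm38 (the mouse genome build used for every position below). Has1 (ENSMUSG00000003665) lies on chromosome 17 at 17843323-17855205 and Has2 (ENSMUSG00000022367) on chromosome 15 at 56665627-56694539. Tnfaip6 (ENSMUSG00000053475) lies on chromosome 2 at 52038009-52056686, Vcan (ENSMUSG00000021614) on chromosome 13 at 89655312-89742509 and Cd44 (ENSMUSG00000005087) on chromosome 2 at 102811141-102901665. Hyal1 (ENSMUSG00000010051) and Hyal2 (ENSMUSG00000010047) are neighbours on chromosome 9, at 107576927-107581710 and 107567945-107572779. Of the 3777 exon bases of Hyal1, 50.8% also belong to Naa80 on the same strand, and 4.3% of the 4237 exon bases of Has2 belong to Has2os on the opposite strand. The libraries did not keep the strand, and how reads in shared exons were assigned is not given in the sources used here, so the levels of Hyal1 and, to a lesser degree, Has2 are uncertain.

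Expression is given as FPKM, fragments per kilobase of gene divided by a total per sample, a scale on which genes of different length can be compared. FPKM times gene length gave whole reads, which totalled 14376395 to 24436763 per sample. The totals used as divisors were not the samples' own: they were 0.747 to 0.819 times the whole reads in uninjured muscle and 1.14 to 1.48 times on day 3, with no overlap, so that differences between groups depend on this scaling. A gene was tested across all genes if it reached an FPKM of 0.5 in at least 5 samples, which held for 14630 genes and for 4 of the 7 members (Cd44, Vcan, Tnfaip6 and Hyal2). Has1, Has2 and Hyal1 were below this level and were compared with two-sided exact permutation tests. Such tests were made for all 7 members, 42 in all. Muscle fibre markers (Ckm, Acta1, Myh4, Mylpf, Tnnt3) summed to an FPKM of at least 19578 in every sample, as the labelled tissue would have. Day 3 replicate 5 and day 7 replicate 5 stood apart from their groups. The summed FPKM of 8 leukocyte markers was 72.0 in the former, against 157 to 355 in the other day 3 samples, and 396 in the latter, against 11.8 to 78.4 in the other day 7 samples. Results that rest on them are given with and without them. Day 7 replicates 3 and 6 stood apart on the other side. Their muscle fibre sums (74933 and 67268) and sums of Pax7, Myf5 and Myod1 (22.8 and 22.4) were inside the uninjured ranges (64813 to 77806 and 15.3 to 23.9). Without day 7 replicate 3, the calls at day 7 against uninjured muscle were 2701 higher and 2519 lower, in place of 2189 and 2107. On a TPM scale (every sample brought to the same total), the median change of all tested genes moved by 0.61 on the log2 scale at day 3, and the calls at day 3 became 6942 higher and 324 lower in place of 3417 and 2899. With quantile normalization they became 2836 higher and 3628 lower, and with median-ratio scaling 3414 higher and 2899 lower. Median-ratio scaling moved the median change at day 3 by only -4.96e-05, so it was hardly a different scale and could not test the scaling.

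The stretches upstream of Tnfaip6, Vcan and Cd44 are shown because these genes were higher at both day 3 and day 7. They are from RefSeq (GRCm38.p6), end before the first exon annotated by GENCODE, and run 5′ to 3′ on the strand of the gene, with matches to the motifs searched in capitals. The Tnfaip6 stretch is chr2:52037863-52038008 (plus strand), the Vcan stretch chr13:89742513-89742762 (minus strand) and the Cd44 stretch chr2:102901666-102901915 (minus strand).
Tnfaip6: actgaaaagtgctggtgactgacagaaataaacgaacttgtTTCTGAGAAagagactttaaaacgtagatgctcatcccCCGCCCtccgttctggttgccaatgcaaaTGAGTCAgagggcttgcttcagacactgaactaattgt
Vcan: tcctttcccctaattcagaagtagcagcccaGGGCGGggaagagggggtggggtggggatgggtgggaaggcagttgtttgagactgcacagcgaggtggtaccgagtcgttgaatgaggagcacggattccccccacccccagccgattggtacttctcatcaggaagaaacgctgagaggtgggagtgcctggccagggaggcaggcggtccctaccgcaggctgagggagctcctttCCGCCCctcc
Cd44: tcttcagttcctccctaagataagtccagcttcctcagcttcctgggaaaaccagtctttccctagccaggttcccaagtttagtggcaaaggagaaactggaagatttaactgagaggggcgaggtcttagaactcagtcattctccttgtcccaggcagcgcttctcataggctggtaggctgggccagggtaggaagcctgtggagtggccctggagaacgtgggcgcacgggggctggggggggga
Searched on both strands of the 250 bases before the start were the TATA box (TATAAA), an AP-1 element (TGANTCA), an NF-kB element, a GC box (GGGCGG) and a GAS-like element (TTCNNNGAA), which occur in 12.4%, 6.75%, 1.41%, 32.7% and 7.02% of 32851 mouse promoters of this length. Positions are those of the first base of a match before the RefSeq start, which for Tnfaip6 lies 104 bases inside the gene as annotated by GENCODE. Tnfaip6 held an AP-1 match at 142, which is 38 bases before the GENCODE start, a GC box at 171 on the minus strand (67 before the GENCODE start) and a GAS-like match at 209 (105), none overlapping another. Vcan held GC boxes at 219 and, on the minus strand, at 10. The Cd44 and Has1 stretches held none of the 5 motifs, while Hyal1 held 2 overlapping GC boxes. Of the 250 bases of Hyal2, 180 are annotated exon, and its only match, a GC box, lies within them. RefSeq promoters were matched for 6 of the 7 members. The unmatched member was Has2. These matches are letters in a window, and no binding was measured.

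The synthase genes were at the edge of detection in uninjured muscle and higher at day 3. Has1 had reads in only 1 uninjured sample, with FPKM of 0, 0.0900, 0, 0 and 0. At day 3 its FPKM was 0.233, 0.528, 0.226, 0.165 and 0.281, above every uninjured sample. The mean was 0.287 ± 0.141 (SD, n = 5) against 0.0180 ± 0.0403 (n = 5), a 15.9-fold ratio that rests on 132 reads against 7. The exact permutation p was 0.00794, the smallest that 5 against 5 samples can give, while limma without the filter on low values gave an adjusted p of 0.134 over all genes. Has2, the synthase that the embryo requires, had uninjured FPKM of 0.0886, 0.123, 0.0603, 0.0575 and 0. Its day 3 values were 0.509, 0.361, 0.224, 0.704 and 0.233. These groups did not overlap either, with means of 0.0660 ± 0.0455 and 0.406 ± 0.203 (SD, n = 5 each; 6.16-fold, exact permutation p = 0.00794, limma without the filter adjusted p = 0.0165).

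At later time points the synthase values were spread widely. Has1 ranged from 0 to 1.11 FPKM at day 7 (median 0.0897, n = 6), where 175 of the group's 200 reads came from replicate 5, and the difference from uninjured muscle was not past the threshold (exact permutation p = 0.154; 0.127 without replicate 5 and 0.0238 without replicate 2, which had no reads). At day 14 Has1 ranged from 0 to 0.607 (median 0.178, n = 6), with 4 of 6 samples above every uninjured sample (exact permutation p = 0.0433). This p passed 0.05, reaching at most 0.0905, when any 1 of 9 of these 11 samples was left out, and it was 0.0671 with quantile normalization and 0.0628 on TPM. In limma without the filter the adjusted p was 0.359. Has2 at day 7 ranged from 0.0631 to 0.982 (median 0.219, n = 6) and 5 of 6 samples lay above all uninjured samples (exact permutation p = 0.0260, and 0.0238 without day 7 replicate 5). With uninjured replicate 1, 3, 4 or 5 left out this p was 0.0571 to 0.0810, and with quantile normalization 0.219. Limma without the filter gave an adjusted p of 0.0993 for Has2 at day 7. By day 14 Has2 had a mean of 0.0873 ± 0.0602 (SD, n = 6, exact permutation p = 0.556), inside the spread of the controls. At day 21 the FPKM of Has1 was 0, 0.0166, 0.0660, 0.147 and 0.198 and that of Has2 was 0.126, 0.0532, 0.0704, 0 and 0.233. Both overlapped the uninjured values (exact permutation p = 0.206 and 0.556), and both were below day 3 (exact permutation p = 0.0159 each; limma without the filter adjusted p = 0.361 and 0.0508). At 26 and 28 reads per group, a small remaining difference was not detectable at this depth.

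**Figure D1:**
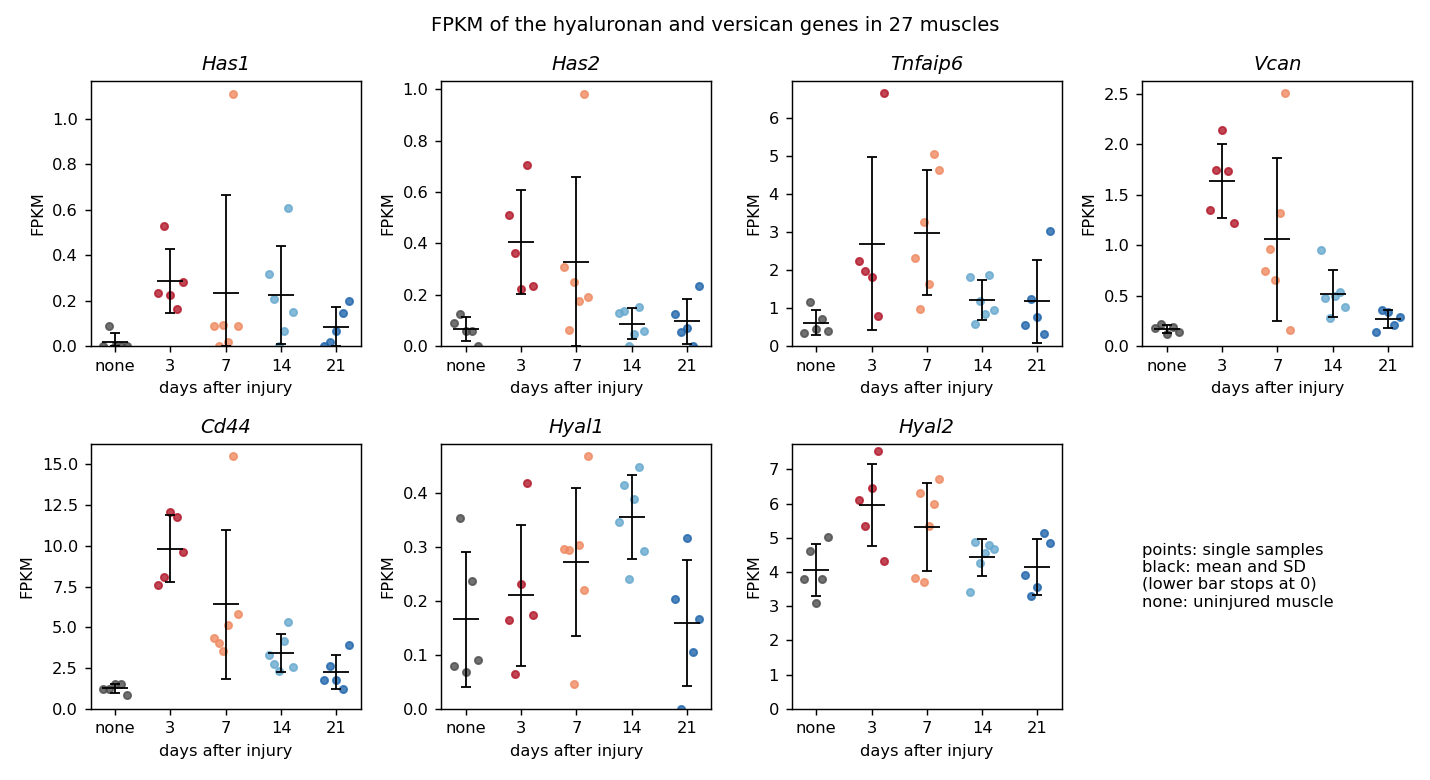
FPKM of the 7 genes in every sample (points) with the group mean and SD (black), against days after injury; each panel has its own vertical scale from 0. The means of Cd44 and Vcan are highest at day 3 (9.82 and 1.64), while their highest single values, 15.5 and 2.51, are those of day 7 replicate 5.

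Tnfaip6 rose at day 3 and day 7, with its highest value in day 3 replicate 5. This gene is induced by inflammatory cytokines in fibroblasts and myeloid cells. The uninjured FPKM was 0.351, 1.16, 0.449, 0.713 and 0.399. At day 3 it was 2.24, 1.97, 1.82, 0.796 and 6.65, and at day 7 it ranged from 0.964 to 5.07 (median 2.80, n = 6). In both injured groups all samples but 1 were above every control. The mean was 4.39-fold higher at day 3 and 4.86-fold higher at day 7, with log2(FPKM + 1) differences of 1.04 (SE 0.33, limma adjusted p = 0.0130) and 1.22 (SE 0.32, adjusted p = 0.00620). The day 3 call rested on replicate 5, without which the difference was 0.73 (adjusted p = 0.0567, or 0.0459 with day 7 replicate 5 left out too), and the day 7 call held without day 7 replicate 5 (1.07, adjusted p = 0.0193). Tnfaip6 at day 14 was 1.21 ± 0.530 FPKM (SD, n = 6, limma adjusted p = 0.332), and at day 21 the values were 0.555, 1.23, 0.767, 0.311 and 3.04 (adjusted p = 0.612). Day 7 and day 3 did not differ beyond their spread (0.17, limma adjusted p = 0.851). Day 21 against day 3 gave -0.70 (adjusted p = 0.120), which was called without day 21 replicate 5 (-0.96, adjusted p = 0.0349).

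Vcan rose 9.66-fold at day 3, and its mean was lower at each later time point. The FPKM of uninjured muscle was 0.177, 0.221, 0.124, 0.185 and 0.142. At day 3 it was 1.35, 1.75, 2.14, 1.73 and 1.22, every sample being above all controls. The group means were 1.64 ± 0.364 and 0.170 ± 0.0381 FPKM (SD, n = 5 each), with a difference of 1.16 in log2(FPKM + 1) (SE 0.18, limma adjusted p = 2.17e-05). Vcan at day 7 spanned 0.161 to 2.51 FPKM (median 0.854, n = 6), from the level of the controls in replicate 6 to the highest of all 27 samples in replicate 5. The call at day 7 held with replicate 5 (0.73, SE 0.17, limma adjusted p = 0.00323) and without it (0.56, adjusted p = 0.00671). At day 14 the range was 0.280 to 0.955 (median 0.485, n = 6), and no sample overlapped the controls (3.07-fold; exact permutation p = 0.00433). Even so, the gene was not called across all genes there (0.37, SE 0.17, adjusted p = 0.132). It was called at day 14 with a pseudocount of 0.1 (1.14, adjusted p = 0.0293), in a fit of only these 2 groups (adjusted p = 0.0283) and without both replicates 5 (adjusted p = 0.0467). At day 21 Vcan was 0.139, 0.353, 0.338, 0.212 and 0.291, of which 3 samples were above all controls (0.11, limma adjusted p = 0.769). Relative to day 3, day 21 was lower by a log2 difference of -1.05 (adjusted p = 1.99e-04) with no overlap.

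Cd44 had the largest difference in log2(FPKM + 1) of the 4 tested members at day 3 and was the only one of them called at day 14. The receptor's uninjured FPKM was 1.24, 1.23, 1.53, 1.498 and 0.827. At day 3 it was 7.57, 8.08, 12.05, 11.8 and 9.64, so that the lowest injured sample was above the highest control. The ratio of means was 7.75, and the difference in log2(FPKM + 1) was 2.24 (SE 0.26, limma adjusted p = 7.82e-07; 2.24 without day 3 replicate 5). Cd44 ranged from 3.53 to 15.5 at day 7 (median 4.75, n = 6) and from 2.33 to 5.34 at day 14 (median 3.02, n = 6). No sample of either group overlapped the controls. The differences were 1.56 (SE 0.25, limma adjusted p = 0.000126) and 0.93 (SE 0.25, adjusted p = 0.0110), and the former was 1.29 without day 7 replicate 5. At day 21 the FPKM was 1.78, 2.62, 1.75, 1.22 and 3.89, with 4 of 5 samples above all controls. The mean was still 1.78-fold that of uninjured muscle, but the difference did not pass the test (0.47, SE 0.26, limma adjusted p = 0.316; exact permutation p = 0.0556). Against day 3 it had fallen by 1.77 on the log2 scale (adjusted p = 5.81e-05), with no overlap.

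Of the hyaluronidase genes, Hyal2 was called higher at day 3. It was the most expressed member in uninjured muscle, with FPKM of 3.81, 4.61, 3.08, 3.80 and 5.02. At day 3 it was 6.11, 5.35, 6.47, 7.53 and 4.32, and 4 of 5 samples lay above all controls. The mean rose 1.47-fold (0.45 in log2(FPKM + 1), SE 0.15, limma adjusted p = 0.0186). This call was lost with quantile normalization (adjusted p = 0.0588), without uninjured replicate 3 (0.0614) and without day 3 replicate 4 (0.0676). On TPM the difference was larger, at 1.24 (limma adjusted p = 0.000228). Hyal2 at day 7 was 5.32 ± 1.28 FPKM (SD, n = 6, limma adjusted p = 0.114; 0.0409 without day 7 replicate 3). It averaged 4.43 ± 0.540 on day 14 (n = 6, limma adjusted p = 0.630) and 4.15 ± 0.807 on day 21 (n = 5, adjusted p = 0.955). Day 21 was below day 3 by a log2 difference of -0.43 (limma adjusted p = 0.0398). This call was lost with quantile normalization (adjusted p = 0.0811), without the filter (0.0688) and in a fit of only these 2 groups (0.0546). It was also lost when day 3 replicate 1, 3 or 4 or day 21 replicate 1, 2 or 3 was left out (adjusted p up to 0.134).

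Hyal1, which shares exons with Naa80, was low throughout. Its mean FPKM was 0.166 ± 0.126 in uninjured muscle (SD, n = 5). After injury the mean was 0.211 ± 0.131 on day 3 (n = 5) and 0.272 ± 0.137 on day 7 (n = 6). On day 14 it stood at 0.355 ± 0.0782 (n = 6), and on day 21 at 0.158 ± 0.117 (n = 5). Its mean was thus highest at day 14, with ranges that overlapped between neighbouring groups. Only that time point passed the exact permutation test against the controls (2.14-fold, p = 0.0195), with 3 of 6 samples above all controls. With quantile normalization this difference was 0.11 in log2 (exact permutation p = 0.178), and limma without the filter gave an adjusted p of 0.132. Naa80 itself ranged from 4.75 to 8.44 FPKM over all samples, many times the level of Hyal1, and its part in the Hyal1 reads was not tested.

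**Figure D2:**
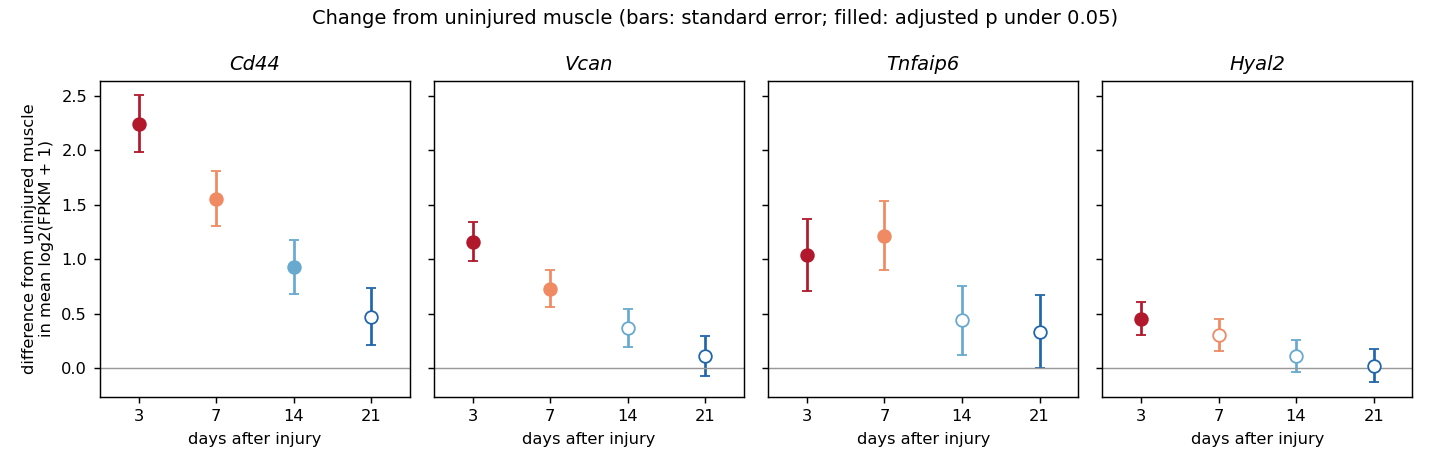
Difference of each time point from uninjured muscle in mean log2(FPKM + 1), with its standard error, for the 4 members tested across all genes; filled points have a limma adjusted p under 0.05. The differences of Cd44 fall from 2.24 at day 3 to 0.47 at day 21, and those of Tnfaip6 are 1.04 at day 3 and 1.22 at day 7.

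Read side by side, the tested members rose early, and none was called by day 21. Vcan passed the filter only through injured samples, its highest uninjured FPKM being 0.221, so the counts of called members depend in part on the filter. Of the 4 tested members, 4 were called higher at day 3, where 23.4% of all tested genes were called higher and 19.8% lower. On day 7 there were 3 such members (all but Hyal2), against 15% of all genes higher and 14.4% lower. Cd44 alone was called on day 14, against 9.02% higher and 11.3% lower. On day 21 limma called 0, as did voom weights, and 0 had an unadjusted p under 0.05, while 1.74% of all genes were higher and 1.69% lower. Between day 7 and day 3 limma called 0 of the 4 in the fit of all samples (2 at an unadjusted p under 0.05), in which 0% of all genes were called higher and 0.0478% lower. Without day 7 replicate 5, however, Vcan (-0.60, adjusted p = 0.00415) and Cd44 (-0.95, adjusted p = 0.00121) were both lower at day 7 than at day 3, as was Has1 (-0.28, exact permutation p = 0.00794). In that fit 1475 of all tested genes were called lower and 317 higher, against 7 and 0 with all samples. It kept day 7 replicates 3 and 6, whose muscle fibre marker sums (74933 and 67268) were inside the uninjured range of 64813 to 77806. Leaving out any other single sample did not give the Vcan or the Cd44 call. Between day 21 and day 3, 3 of the 4 were lower (Vcan, Cd44 and Hyal2), against 16.2% of all genes lower and 9.23% higher. The comparisons with uninjured muscle share the same 5 control samples.

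The order of levels changed with injury. In uninjured muscle the mean FPKM ran from Hyal2 (4.06) and Cd44 (1.27) through Tnfaip6 (0.613), Vcan (0.170) and Hyal1 (0.166) to Has2 (0.0660) and Has1 (0.0180). At day 3 Cd44 was first at 9.82, ahead of Hyal2 at 5.96, Tnfaip6 at 2.69 and Vcan at 1.64, and Has2 (0.406) and Has1 (0.287) stood above Hyal1 (0.211). Within each gene, the groups next to each other in the order of means overlapped in their ranges for all 7 members. FPKM is per gene, so that the splice forms of Vcan and Cd44 were not separated.

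Several members varied together with leukocyte markers across the muscles. The leukocyte markers (Ptprc, Itgam, Adgre1, Cd68, Csf1r, S100a8, S100a9 and Cd3e) summed to between 4.20 and 6.89 FPKM in uninjured muscle. On day 3 the sum lay between 72.0 and 355, on day 7 between 11.8 and 396, on day 14 between 14.0 and 33.0, and on day 21 between 6.74 and 12.9. All 7 tested markers were higher on day 3, whereas 5 were on day 7, 1 on day 14 and 0 on day 21. Cd3e was below the filter, with a mean of 0.256 FPKM in uninjured muscle and 0.162 at day 3. Cd68 supplied the largest part of the mean leukocyte sum at day 3 (143.6 FPKM, against 1.61 in uninjured muscle). Across the 27 samples, Pearson's r of log2(FPKM + 1) with the log2 of this sum was 0.955 for Vcan and 0.916 for Cd44. After the group means were subtracted, it was 0.839 and 0.608, and Spearman's rho was 0.526 and 0.495. Has2 had r = 0.787 (0.645 after subtraction, rho 0.318) and Has1 0.588 (0.534, but rho -0.0428). Hyal2 had 0.616 (0.191) and Hyal1 0.161 (0.0652). For Tnfaip6, r was 0.453 over all samples and -0.217 (rho -0.321) after the group means were subtracted. Without day 7 replicate 5, r after subtraction was 0.685 for Vcan, 0.21 for Cd44, 0.222 for Has2, -0.0855 for Has1 and -0.644 for Tnfaip6. Its highest value, 6.65 in day 3 replicate 5, was found in the day 3 sample with the lowest leukocyte sum, whereas the highest at day 7, 5.07 in replicate 5, was in the sample with the highest sum of all 27 (396). The second highest at day 7, 4.65 in replicate 6, was in the day 7 sample with the lowest sum (11.8). That replicate 6 had 0.161 FPKM of Vcan, the lowest of its group, and 5.80 FPKM of Cd44, the second highest. These are descriptions over samples that share their groups and libraries, and the part of leukocytes in the changes was not tested.

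**Figure D3:**
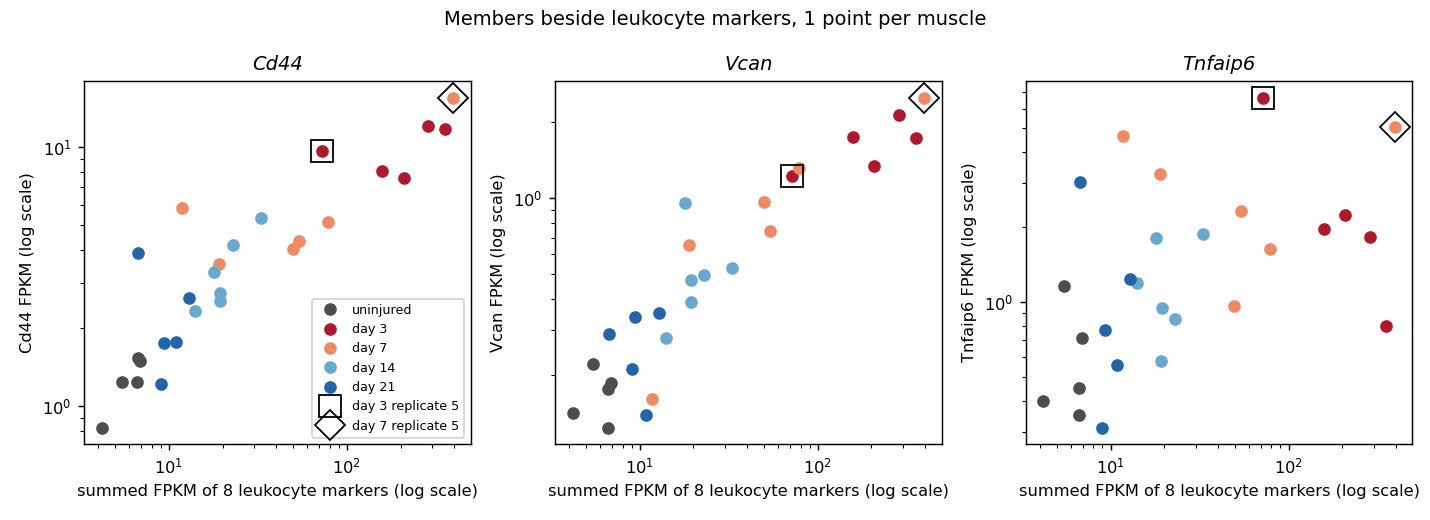
FPKM of Cd44, Vcan and Tnfaip6 against the summed FPKM of 8 leukocyte markers, 1 point per muscle, both axes on a log scale, coloured by group; a square marks day 3 replicate 5 and a diamond day 7 replicate 5. Vcan follows the marker sum (r = 0.955 over 27 samples), while Tnfaip6 is highest, at 6.65 FPKM, in the day 3 sample with the lowest sum.

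Fibroblast markers (Pdgfra, Col1a1, Dcn, Lum and Pdgfrl) were also higher after injury. Their sum lay between 35.6 and 92.2 FPKM in uninjured muscle, between 264 and 512 on day 3, between 182 and 708 on day 7, between 96.3 and 347 on day 14 and between 79.5 and 139 on day 21. Of the 5, 4 were called higher on each of days 3, 7 and 14, and 1 on day 21. Most of the sum at day 3 came from Col1a1 (mean 296.5 FPKM, against 23.7 in uninjured muscle). Dcn was 32.7 FPKM at day 3 and 30.7 in uninjured muscle (limma adjusted p = 0.798). Over the 27 samples, Pearson's r with the log2 of the fibroblast sum was 0.779 for Vcan, 0.776 for Cd44 and 0.572 for Tnfaip6. For Has2, Hyal2, Has1 and Hyal1 it was 0.542, 0.422, 0.406 and 0.359. After the group means were subtracted, r was 0.414 for Vcan, 0.27 for Hyal1, 0.151 for Cd44 and 0.0913 for Has2. It was 0.072 for Has1, 0.0173 for Tnfaip6 and -0.193 for Hyal2. Without day 7 replicate 5, r after subtraction was 0.597 for Vcan, 0.269 for Hyal1, 0.241 for Cd44 and 0.174 for Has2. For Has1, Tnfaip6 and Hyal2 it was then 0.156, 0.0267 and -0.191. Muscle fibre markers went the other way, with sums of 64813 to 77806 in uninjured muscle and 19578 to 51861 at day 3, where 5 of 5 were lower, but 2 of 5 on TPM and 1 of 5 with quantile normalization. Myogenic cell markers (Pax7, Myf5 and Myod1) summed to 15.3 to 23.9 in uninjured muscle and 35.0 to 98.4 at day 3, tendon markers (Scx, Tnmd and Mkx) to 5.01 to 18.7 and 29.1 to 41.0. Endothelial markers (Pecam1, Cdh5 and Vwf) had 0 of 3 called at any of the 4 time points. The part of these shifts in the members' changes was not tested.

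Genes with the most similar profile over the 27 samples differed between members. For Vcan they were Lyz2 (r = 0.964), Plxnb2 (0.964) and Ctss (0.961), of which Lyz2 and Ctss, lysozyme and cathepsin S, are well known from macrophages. For Cd44 they were Arl6ip1 (0.959), Fes (0.957) and Dbn1 (0.956). Tnfaip6 was most like Sipa1l1 (0.82), Gas7 (0.82) and Farp1 (0.80), and Hyal2 most like Cdc25c (0.785), Sh2b2 (0.778) and Sec14l1 (0.773). Between members, the highest r was that of Vcan with Cd44 (0.886, and 0.573 after the group means were subtracted), and Has1 with Has2 had 0.684 and 0.704, with Spearman's rho of 0.459 after subtraction. Without day 7 replicate 5, the values were 0.86 and 0.166 for Vcan with Cd44, and 0.437 and 0.237 for Has1 with Has2.

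The rest of the pathway was followed in 66 other genes in 8 lists, of which 45 were tested and 21 were below the filter. Some, such as Hmmr and Adamts4 (highest uninjured FPKM 0.0321 and 0.156), passed the filter only through injured samples. The counts of called genes thus depend in part on the filter. At day 3, 23 of the 45 were higher and 6 lower (median log2 difference 0.58, against 0.01 over all tested genes). On day 7 these counts were 19 and 5, on day 14 they were 7 and 6, and on day 21 they were 1 and 2. Of all tested genes, 23.4% were called higher and 19.8% lower on day 3, and 15% and 14.4% on day 7. On day 14 these shares were 9.02% and 11.3%, and on day 21 they were 1.74% and 1.69%. Between day 21 and day 3, 0 of the 45 were higher and 21 lower, against 9.23% and 16.2% of all tested genes. On TPM, 31 were higher and 0 lower at day 3, so that each decrease named below was lost on that scale. Without both replicates 5, the day 3 counts were 24 and 5.

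Transcripts for hyaluronan synthesis went both ways on the FPKM scale, and no hyaluronan or nucleotide sugar was measured. Of the 7 tested genes of substrate synthesis and the remaining synthase, 3 were higher and 3 lower at day 3. Ugdh, which makes the UDP-glucuronic acid of the chain, went from 0.692 ± 0.182 to 2.99 ± 0.657 FPKM (SD, n = 5 each; 1.23, limma adjusted p = 2.81e-05), and Gfpt2, of the first hexosamine step, from 0.514 to 1.29 (0.59, adjusted p = 0.00464). Ugp2, which makes UDP-glucose and also serves glycogen, fell from 245 ± 44.1 to 118 ± 25.1 FPKM (-1.05, limma adjusted p = 7.14e-04) and was still lower at day 21 (142 ± 46.5; -0.82, adjusted p = 0.0464). Uap1, of UDP-N-acetylglucosamine synthesis, was lower at day 3 (-0.42, adjusted p = 0.0344) but not without both replicates 5 (adjusted p = 0.0807), and had a difference of 0.34 on TPM (adjusted p = 0.310).

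In the breakdown list, 2 of 3 tested genes were higher at day 3 and 0 at any later time point. Gusb, the lysosomal beta-glucuronidase that degrades fragments further, went from 2.82 ± 0.272 to 14.3 ± 6.99 FPKM (SD, n = 5 each; 1.86, limma adjusted p = 7.50e-05), whereas Hyal2 differed by 0.45 on the same log2 scale. Of the 5 other hyaluronan receptors, 4 were higher and 1 lower at day 3. Stab1, a scavenger receptor of macrophages and sinusoidal endothelium, rose from 2.06 to 15.5 FPKM (2.30, limma adjusted p = 1.13e-04) and Layn, layilin, from 0.465 to 2.34 (1.15, adjusted p = 1.86e-04). Stab2, which clears circulating hyaluronan, fell from 1.08 ± 0.320 to 0.442 ± 0.151 (-0.52, adjusted p = 0.00121) and was 0.522 ± 0.231 at day 21 (SD, n = 5 each; -0.45, limma adjusted p = 0.0388).

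Other hyaluronan-binding proteins were mostly below the filter. Of 14 hyaluronan-binding proteins, 12 were below the filter, among them the link protein Hapln1, and of the 2 tested none was called at day 3. Itih5, of the inter-alpha-trypsin inhibitor heavy chain family, was higher at day 14 (0.75, limma adjusted p = 0.0235). Chondroitin sulphate is the chain that versican carries, and of 12 tested genes of its synthesis 5 were higher and 1 lower at day 3. Chpf, a chain polymerising factor, rose from 1.70 to 7.37 FPKM (1.64, limma adjusted p = 1.77e-06), Chst12, a 4-O-sulphotransferase, from 2.45 to 8.58 (1.44, adjusted p = 1.76e-04), and Csgalnact2, a chain initiator, fell from 5.58 to 3.32 (-0.60, adjusted p = 0.0144; 0.07 on TPM, adjusted p = 0.852). Of the 6 tested proteases that cut versican only Adamts4 was called at day 3, from 0.0883 ± 0.0428 to 0.884 ± 0.364 FPKM (0.77, limma adjusted p = 0.00492). All 4 tested matrix partners of versican rose at day 3. Tnc (tenascin C) went from 0.420 to 13.8 FPKM (3.23, limma adjusted p = 4.24e-07) and Fbn1 (fibrillin 1) from 1.87 to 9.74 (1.92, adjusted p = 3.79e-06).

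Among 6 ligands and partners of CD44, 4 were higher and 1 lower at day 3. Spp1, osteopontin, a secreted ligand of CD44, had day 3 FPKM of 394, 261, 630, 763 and 15.5 against 0.296 to 4.92 in uninjured muscle. The low sample was again replicate 5, yet it too was above all controls (6.31, limma adjusted p = 4.56e-06; 7.28 without both replicates 5). At day 21 Spp1 was 2.13 ± 1.31, with a difference of -0.05 (adjusted p = 0.988). Mmp14, a membrane metalloprotease that sheds CD44, was the only pathway gene higher at day 21, at 10.7 ± 1.87 against 4.46 ± 0.732 FPKM (SD, n = 5 each; 1.09, limma adjusted p = 0.0392), after 30.5 ± 7.13 at day 3 (2.51, adjusted p = 8.71e-07). Its day 21 call was lost on TPM (1.32, adjusted p = 0.183) and with quantile normalization (adjusted p = 0.0887). Rdx, radixin, which ties the CD44 tail to actin, fell from 30.6 to 17.4 FPKM at day 3 (-0.77, limma adjusted p = 0.00215; 0.02 on TPM, adjusted p = 0.966).

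**Figure D4:**
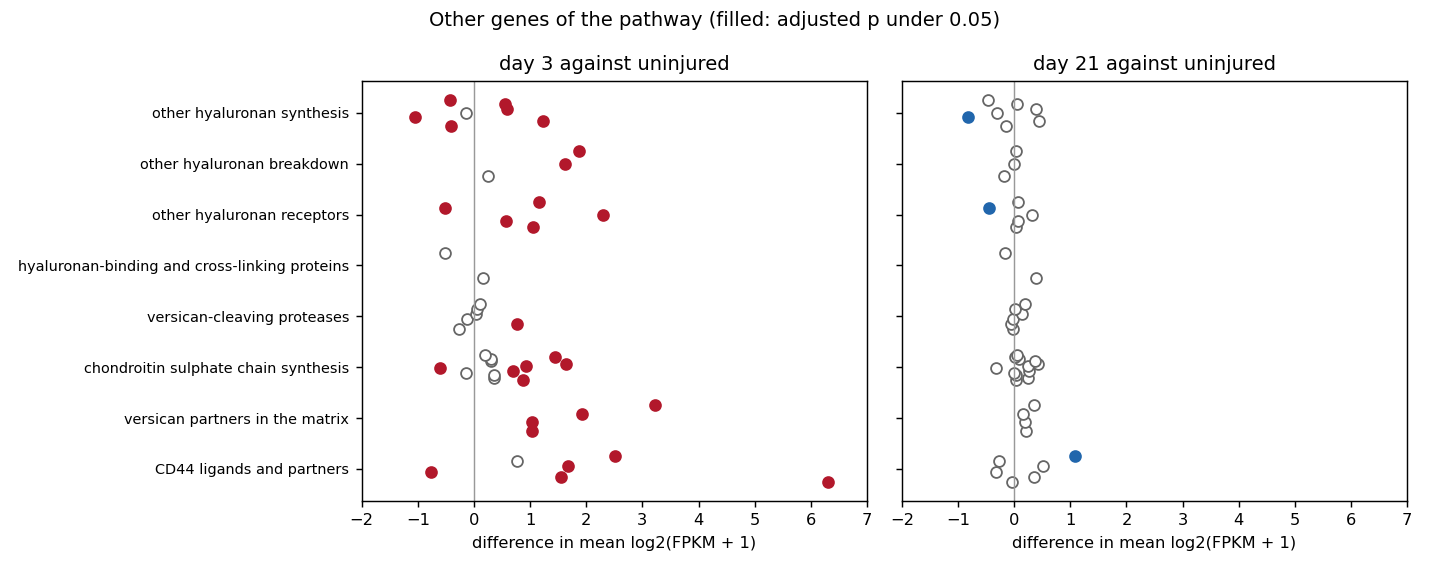
Difference in mean log2(FPKM + 1) from uninjured muscle for the 45 tested pathway genes, by list, at day 3 (left) and day 21 (right); filled points have a limma adjusted p under 0.05. At day 3, 23 are higher and 6 lower, against 23.4% and 19.8% of all tested genes. At day 21, 1 is higher and 2 are lower, against 1.74% and 1.69%.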

How the data were processed

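Total RNA of 27 tibialis anterior muscles was purified with poly-T beads and sequenced from non-directional libraries. Per the labels, the authors used HISAT2 2.0.5 and featureCounts 1.5.0-p3, and deposited 1 table of FPKM per gene, whose scaling and genome build are not given in the sources used here. Multiplied by gene length, 100% of the deposited FPKM values gave whole reads (within 0.01). The denominators were 0.747 to 1.48 times the samples' own totals, lowest in uninjured muscle (0.747 to 0.819) and without overlap on day 3 (1.14 to 1.48).

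FPKM was transformed to log2(FPKM + 1), and differences are on this scale, which understates the change of low genes. The filter kept genes reaching 0.5 FPKM in 5 or more samples. A linear model in limma 3.58.1 (R 4.3.3) took all 27 samples together, with a variance trend and Benjamini-Hochberg adjustment over the 14630 tested genes, and called at an adjusted p under 0.05. All members were also compared with two-sided exact permutation tests over every split of the 2 groups' samples (Python 3.11.15). For members below the filter, limma was run only without the filter. The method was tested on simulated data. The members and the gene lists were chosen with earlier results of these data known. After testing, 2 genes that are not reported here were taken off the lists, and the list values were computed without them. Named were the members, up to 2 called genes of each list with the largest increase and decrease at day 3, every list gene called at day 21, and the 3 genes most correlated with each tested member. Has3, Hmmr, Lyve1, Itih5, Naa80, Has2os, Hapln1 and the marker genes are named outside this rule. Alternatives were other pseudocounts (0.1 and 0.5), no filter, a minimum of 1 FPKM, TPM, median-ratio scaling, quantile normalization, no variance trend, replicate blocks, fits of only 2 groups, voom weights and leaving out samples. Sample quality weights were added after seeing the data.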

Additional observations from a re-analysis of the deposited data

Results flagged for a closer look

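Single samples stood far from the rest of their group in 6 of 35 sets of values (7 genes in 5 groups). The rule flags about 1 in 20 sets of independent, normally distributed values, a rate that need not hold for raw FPKM near 0. The flagged values were Has1 in uninjured replicate 2 (0.0900 FPKM, with no reads in the rest of its group) and day 7 replicate 5 (1.11), Has2 in day 7 replicate 5 (0.982), Tnfaip6 in day 3 replicate 5 (6.65), Vcan in day 14 replicate 1 (0.955) and Cd44 in day 7 replicate 5 (15.5). Of these, 3 came from day 7 replicate 5, the sample with the highest leukocyte marker sum of all 27 (396 FPKM). The part of this in its values was not tested.

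The effect at day 21 was flagged as different from that at day 3 for 5 members, by limma or by unadjusted exact permutation tests. Between these days limma called 16.2% of all tested genes lower and 9.23% higher. The log2 differences between the 2 days were -1.05 for Vcan (limma adjusted p = 1.99e-04), -1.77 for Cd44 (adjusted p = 5.81e-05) and -0.43 for Hyal2 (adjusted p = 0.0398). They were -0.24 for Has1 and -0.35 for Has2 (exact permutation p = 0.0159 each). In limma without the filter the adjusted p was 0.361 for Has1 and 0.0508 for Has2. The Hyal2 call was lost with quantile normalization (limma adjusted p = 0.0811), without the filter (0.0688), in a fit of only these 2 groups (0.0546) and without some single samples.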

How the results depend on the processing

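Over the members and comparisons, 1299 values under alternatives were computed, of which 1225 kept their direction and side of the threshold, 37 lost a call, 19 gained one and 18 turned direction. For the tested members, fits that left out a sample of neither compared group were counted too. Such a fit leaves the difference unchanged and can move only its p-value, so the 1225 include values whose direction was fixed. They also include those of median-ratio scaling, which hardly differed from the FPKM scale (median change moved by -4.96e-05 at day 3 and -0.000228 at day 7). The number of tested members called at day 14 was 1 and became 2, through Vcan, with a pseudocount of 0.1, with only the 2 groups and without day 3 and day 7 replicates 5. Between day 7 and day 3 it was 0 and became 2, through Vcan and Cd44, without both replicates 5 and with sample quality weights (adjusted p = 0.0206 and 0.00406). Of all tested genes, 1748 were lower and 517 higher without both replicates 5, and 1478 and 414 with quality weights, against 7 and 0. Leaving out single samples gave 0 to 2. The values that turned direction were all uncalled. With quantile normalization they were those of Hyal1 at day 3 (-0.075) and day 7 (-0.0036), Has2 at day 14 (-0.045) and day 21 (-0.00053), and Hyal1 between day 21 and day 3 (0.042). On TPM, Hyal1 at day 21 was 0.024. Hyal2 at day 21 was -0.0076 with the replicate letter as a block and -0.066 with sample quality weights. When single samples were left out, the ranges that crossed 0 were -0.0041 to 0.11 for Hyal1 at day 3, -0.0051 to 0.070 for Has2 at day 21, -0.056 to 0.047 for Hyal1 at day 21, -0.052 to 0.089 for Hyal2 at day 21 and -0.042 to 0.48 for Tnfaip6 between day 7 and day 3. The causes were not tested. TPM also changed the split of all calls to 6372 higher and 210 lower at day 7, 2096 and 117 at day 14, 64 and 8 at day 21, and 174 and 4872 between day 21 and day 3. Calls on TPM that were absent on FPKM were Hyal2 at day 7 (0.99), Hyal1 at day 7 (0.42, exact permutation p = 0.0411) and Tnfaip6 between day 21 and day 3 (-1.36).

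Replicate numbers did not pair the samples, since the deviations of 51 same-numbered pairs correlated at -0.521 to 0.566 (median -0.0032) and 7 samples correlated best with their own number. With the replicate number as a block, the members called were 4 at day 3, 3 at day 7, 1 at day 14, 0 at day 21, 0 between day 7 and day 3 and 3 between day 21 and day 3, the same counts as without the block and with the letter block. Has1, Has2 and Hyal1 rest on 7 to 231 reads per group, so small differences of these genes were not detectable at this depth.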

Other observations

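Has3, the remaining hyaluronan synthase, was described after its values were seen. It went against Has1 and Has2, with a mean of 0.664 ± 0.233 FPKM in uninjured muscle and 0.254 ± 0.140 at day 3 (SD, n = 5 each; log2 difference -0.40, limma adjusted p = 0.0110), and 0.324 ± 0.197 at day 7 (n = 6; -0.33, limma adjusted p = 0.0391). On TPM the day 3 difference was -0.28 (adjusted p = 0.310). In mean FPKM, Has3 thus stood above Has2 (0.0660) and Has1 (0.0180) in uninjured muscle and below Has2 (0.406) at day 3, where it was within the spread of Has1 (0.287 ± 0.141). At day 21 it was 0.495 ± 0.120 (adjusted p = 0.549).

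A pair of other receptors also rose. Hmmr, a hyaluronan receptor that also marks dividing cells, was at 0.00642 ± 0.0143 FPKM in uninjured muscle and at 1.13 ± 0.560 at day 3 (SD, n = 5 each; 1.05, limma adjusted p = 2.46e-05). Lyve1, of lymphatic endothelium and resident macrophages, had 0.317 ± 0.209 and 0.993 ± 0.474 (0.58, adjusted p = 0.0498). Both were described after their values were seen.

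The samples that carry the letter E in the labels (replicate 5 of each group) had the highest Tnfaip6 FPKM of their group at day 3 (6.65), day 7 (5.07), day 14 (1.88) and day 21 (3.04), and ranked 4 of 5 in uninjured muscle (0.399). Has1 was likewise highest in the letter E sample at day 7 (1.11), day 14 (0.607) and day 21 (0.198), and so were Has2 (0.982, 0.151 and 0.233) and Cd44 (15.5, 5.34 and 3.89). This did not hold in every group or gene. In uninjured muscle the letter E sample was the lowest for Has2 (0) and Cd44 (0.827). At day 3 it ranked 4 of 5 for Has2 and 3 of 5 for Cd44, and was the lowest for Vcan (1.22) and Hyal2 (4.32). The labels do not say what the letter stands for.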
